A study of Mus musculus with 21 samples.

Results

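The 10 genes described here encode the chaperones, proteases, transcription factor and CHCHD proteins with which mitochondria answer protein stress: Hspd1, Hspe1, Hspa9, Trap1, Lonp1, Clpp, Clpx, Atf5, Chchd2 and Chchd10. They were chosen by name from the 55487 genes of the table, with earlier results of these data known. Hspe1 and Chchd2 are also on the study's own list of differentially expressed genes (DEGs) from these mice, so their difference between the groups was known when the genes were chosen. It is given here as a description. Where counts of genes called are printed, these 2 genes are among the genes counted, and nothing is read from their calls.

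The study asked whether early life stress leaves lasting changes in hippocampal gene expression. Poly-A RNA from the hippocampus of wild type male C57BL/6 mice was sequenced at 10 weeks of age, with 1 library per mouse. In the maternal separation (MS) group, 9 mice, whole nests were taken from the dam for 4 h per day from postnatal day 10 to day 17, and the home cages had less nesting material during that time. The standard-reared (SR) controls were 12 mice that stayed with the dam.

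Pups were spread evenly over the dams before whole nests were assigned to a condition, and male littermates were later housed together. A nest therefore has a single condition. The labels name no nest, but the animal numbers form 7 sets of 3 consecutive numbers, called A to C in MS and D to G in SR, and each mouse is named by its set and its place in it. The numbers fall in a lower range, with sets A, B, D, E and F, and a higher range, with sets C and G.

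Total counts lay between 17276810 and 30449055 per library. MS mouse A2 lay apart in a principal component analysis, with 149 CPM summed over 6 dentate granule markers against 300.4 to 535 in the other MS mice and 2024 CPM summed over 8 striatal markers against at most 700 CPM. The study removed 1 outlier without naming it. Here A2 was left out, which may or may not be the same library, and 8 MS mice were compared with 12 SR mice. CPM express a gene's counts against the TMM-normalised library total. Hippocampal dentate granule and CA pyramidal markers had counts in every library.

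Most mitochondrial proteins are made in the cytosol, imported unfolded and folded in the matrix. The mitochondrial heat shock protein Hspa9 pulls them in, the chaperonin Hspd1 folds them inside a chamber closed by its lid Hspe1, and the proteases Lonp1 and ClpXP degrade those that fail. When unfolded proteins accumulate, cells raise nuclear transcription of these genes in the mitochondrial unfolded protein response, in which the factors Atf5, Atf4 and Ddit3 take part. Neurons depend on mitochondrial energy supply, and mutations in human CHCHD2 and CHCHD10 are linked to neurodegenerative disease.

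Hspd1 and Hspe1 are neighbours that are read in opposite directions, and their promoter is shown because both members of the chaperonin pair start within it. In GENCODE, Hspd1 lies at chr1:55077835-55088243 on the minus strand and Hspe1 at chr1:55088132-55091307 on the plus strand of GRCm38, so the annotated genes overlap by 112 bases. Among the RefSeq starts, the nearest Hspd1 start lies 95 bases from the Hspe1 start and another lies 216 bases from it. A stretch of the Hspe1 promoter, at chr1:55088053-55088082 on the plus strand, holds a match to the heat shock element GAANNTTC, in capitals. On the Hspd1 side, chr1:55088283-55088312 on the minus strand holds a match to the motif of NRF1, also in capitals.
Hspe1: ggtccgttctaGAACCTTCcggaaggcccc
Hspd1: gccgcgcagcGCGCAGGCGCactcagcccc

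Counted in bases from the start, with bases before it negative, the heat shock match began at -84 of Hspe1, and the same bases, read on the other strand, began at -139 of the inner Hspd1 start. The NRF1 match began at -59 of the outer Hspd1 start. Of 32851 RefSeq promoter windows of 300 bases (250 before to 50 after a start), 7.86% held a match to GAANNTTC on either strand and 4.60% held one to the NRF1 motif. In GENCODE the Hspe1 stretch lies in an alternative first exon of Hspd1 (5′ UTR) and the Hspd1 stretch in the first exon of Hspe1 (5′ UTR). No match overlapped that of another motif searched. Such matches describe the letters and are not measured binding sites.

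The promoters of Chchd10 and Trap1 are shown because they hold the stress-factor motifs searched for. TGATGNAA, the joint motif of ATF4 with C/EBP, occurred in 3.97% of the windows and, among the 8 member genes searched, in Chchd10, at -85 and at -72. TGACGTCA, the cAMP response element, occurred in 1.79% of the windows and, among the same genes, in Trap1, at -47. The stretches are chr10:75933000-75933099 on the plus strand and chr16:4077841-4077940 on the minus strand of GRCm38.p6, outside annotated exons, with the matches in capitals.
Chchd10: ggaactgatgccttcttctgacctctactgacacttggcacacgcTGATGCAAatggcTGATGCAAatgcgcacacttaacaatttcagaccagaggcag
Trap1: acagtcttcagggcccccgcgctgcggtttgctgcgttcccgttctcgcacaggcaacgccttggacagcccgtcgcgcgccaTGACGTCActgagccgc

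None of the 10 windows of the 8 members searched held the ETS motif CCGGAAGT, which occurred in 3.89% of all windows. Hspa9 and Chchd2 were not searched.

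All 10 members passed the filter on low counts. Their log2 fold change, MS against SR, was above 0 in 9 members and below 0 in Trap1, with a median of 0.04 against 0.00084 over all 18146 genes tested, of which 50.3% were above 0. Hspe1 and Chchd2 stood highest, Hspd1 and Clpx followed at less than a 6% difference each, and the remaining members lay near 0. The edgeR quasi-likelihood test with Benjamini-Hochberg adjustment called 0 of 10 members, and 0.011% of all genes (2 genes). At an unadjusted p under 0.05, 3 members were higher in MS, beside 6.62% of all genes, and 0 were lower, beside 4.92%. DESeq2 called 2 members higher, Hspe1 and Chchd2, beside 0.495% of all genes. Hspe1 and Chchd2 were chosen with their difference known, and all members with earlier results of these data known, so nothing is read from either count.

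**Figure D1:**
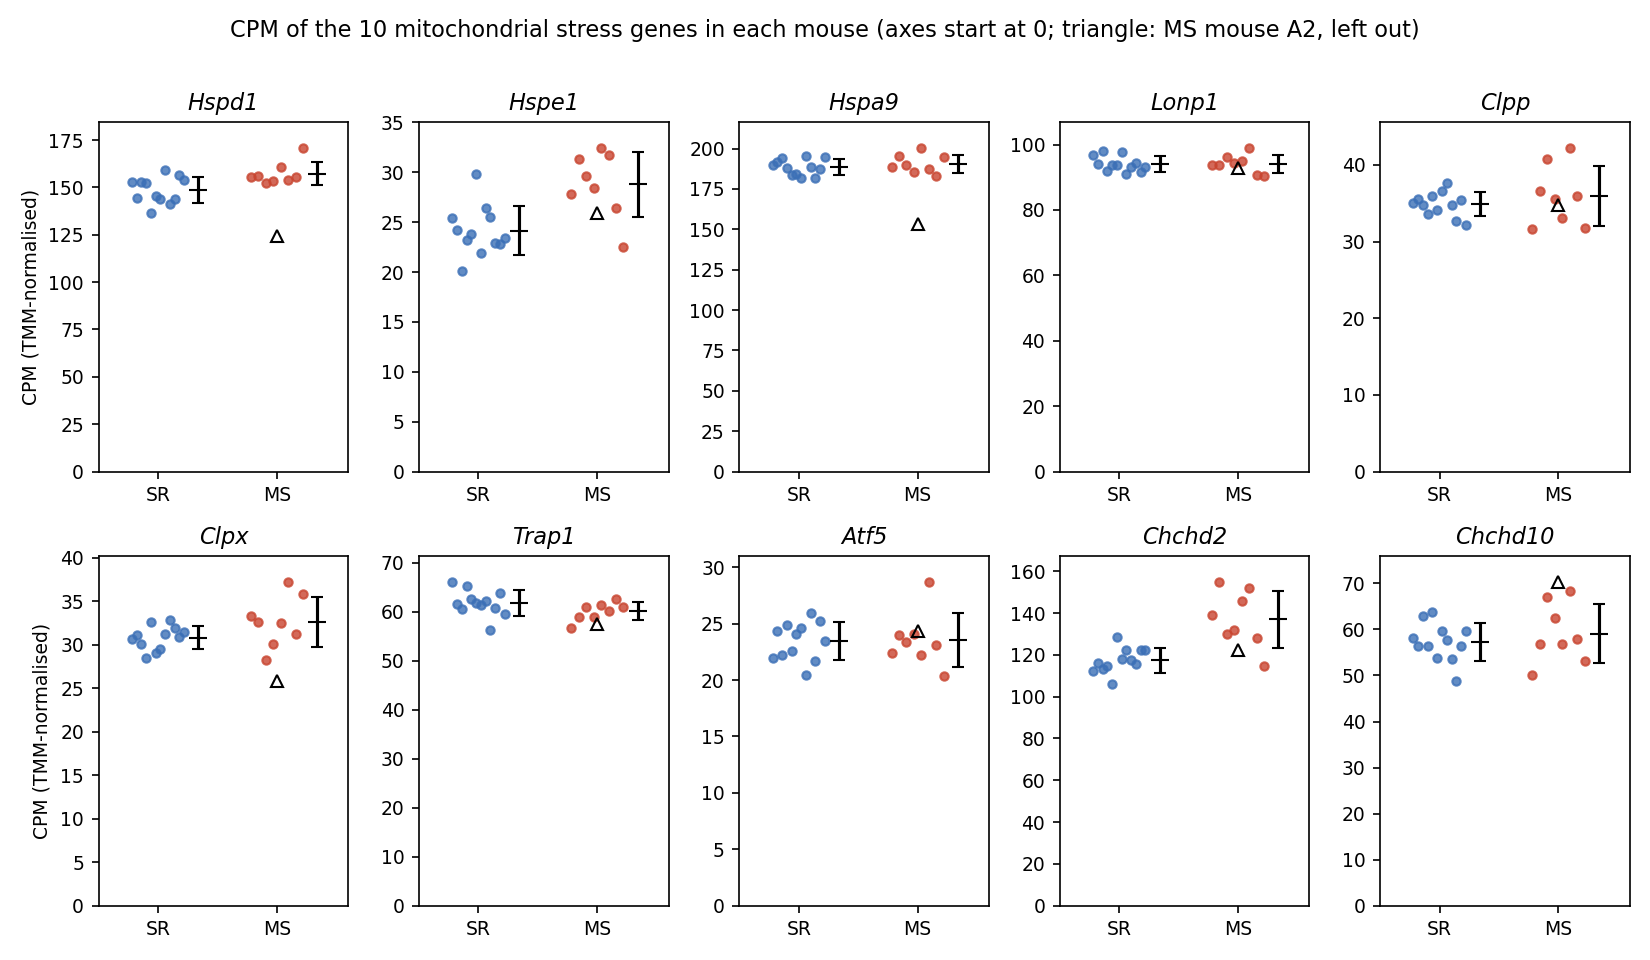
CPM of each of the 10 genes (vertical axes, from 0) in each SR mouse (blue, n = 12) and MS mouse (red, n = 8), with mean ± SD beside the points and the left-out MS mouse A2 as a triangle. Chchd2 was above every SR mouse in 6 of 8 MS mice, and the groups overlapped in all 10 genes.

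**Figure D2:**
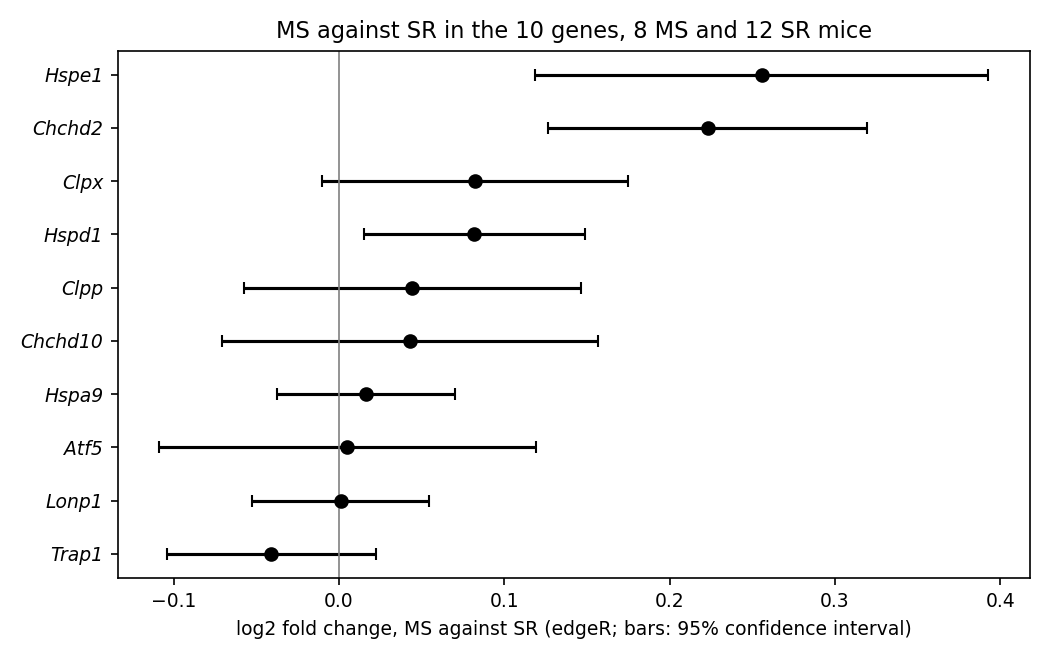
Log2 fold change of the 10 genes, MS against SR (horizontal axis, log2 scale), with 95% confidence intervals from edgeR, 8 MS and 12 SR mice. Hspe1 at 0.26 and Chchd2 at 0.22 lie apart from the other genes, which lie between -0.04 and 0.08.

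Hspe1, the lid of the chaperonin chamber, was at 22.5, 29.0 and 32.4 CPM in MS (lowest, median and highest mouse) and at 20.1, 23.6 and 29.8 CPM in SR. Of 8 MS mice, 7 were above the SR median and 3 were above every SR mouse. The mean was 28.8 ± 3.29 CPM in MS (SD, n = 8) and 24.1 ± 2.46 CPM in SR (SD, n = 12). On the log2 scale MS was higher by 0.26 (SE 0.0664), which did not pass the threshold (edgeR adjusted p = 0.148). The 95% interval, not adjusted for the number of genes or for the choice of this gene, ran from 8.55% to 31.3% higher. The exception in MS was C3, the lowest MS mouse, which was below the SR median, and the highest SR mouse was E3. The counts behind these values were 410 to 712 per library, so counting error alone gives a coefficient of variation (CV) of 4.22%, against 10.2% measured among SR mice.

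Hspd1, the chamber itself, differed less. It was at 152, 156 and 171 CPM in MS and at 136, 149 and 159 CPM in SR (lowest, median and highest). All 8 MS mice were above the SR median and 2 were above every SR mouse, with C3 the highest. The means were 157 ± 6.06 and 149 ± 6.98 CPM (SD, n = 8 and 12). Their log2 fold change of 0.08 (SE 0.0324) did not pass the threshold (edgeR adjusted p = 0.330). The 95% interval, not adjusted for the number of genes or for the choice of this gene, ran from 1.03% to 10.9% higher. With all 21 libraries the log2 fold change was 0.048 (edgeR adjusted p = 0.680).

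Hspe1 and Hspd1 serve in 1 complex, but their ratio varied from mouse to mouse. Hspe1 CPM as a percent of Hspd1 CPM ranged from 13.2% to 20.6% in MS, with a median of 19.0%. In SR it ranged from 13.2% to 20.5%, with a median of 16.3%. The ends of the ranges nearly coincided, and the low end in MS was C3. The means were 18.4 ± 2.44% in MS (SD, n = 8) and 16.3 ± 1.87% in SR (SD, n = 12), and the difference was not tested. MS mouse C3 held both the highest Hspd1 and the lowest Hspe1 of its group. With log2 CPM centred within groups, Hspd1 and Hspe1 had a Pearson r of -0.27 and a Spearman rho of -0.13 over 20 mice, and neither passed the threshold (permutation test, adjusted p = 0.609 and 0.812 over 45 pairs). Without the 2 mice farthest from the median of Hspd1, r was -0.16. It was -0.62 within MS (n = 8), -0.07 within SR (n = 12) and -0.02 over all 21 libraries.

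Hspa9, the motor that pulls proteins into the matrix, was among the steadiest members. It was at 183, 189 and 200.3 CPM in MS and at 182, 188 and 196 CPM in SR (lowest, median and highest), and the groups overlapped almost wholly. Its log2 fold change was 0.02 (SE 0.0261, edgeR adjusted p = 0.861), with a 95% interval from -2.57% to 4.98%.

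Trap1, the mitochondrial relative of Hsp90, was the member whose mean was lower in MS. It was at 56.7, 60.5 and 62.6 CPM in MS and at 56.2, 61.7 and 66.0 CPM in SR. Of 8 MS mice, 1 was above the SR median and 0 were above every SR mouse. The log2 fold change of -0.04 (SE 0.0307) did not pass the threshold (edgeR adjusted p = 0.645), with a 95% interval from -6.97% to 1.58%.

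Of the proteases, Lonp1, which degrades damaged matrix proteins, was at 90.3, 94.2 and 98.9 CPM in MS and at 91.1, 93.6 and 98.1 CPM in SR. Its means, 94.1 ± 2.80 and 94.1 ± 2.32 CPM (SD, n = 8 and 12), were the closest of the 10 members. The log2 fold change was 0.0011 (SE 0.0259, edgeR adjusted p = 0.994), and the 95% interval, -3.56% to 3.86%, was the narrowest of the 10.

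Clpp, the proteolytic chamber of ClpXP, was at 31.7, 35.8 and 42.2 CPM in MS and at 32.2, 34.9 and 37.6 CPM in SR. MS mice lay on both sides of the SR range, with 2 above every SR mouse and 2 below. Its log2 fold change was 0.04 (SE 0.0494, edgeR adjusted p = 0.779, 95% interval -3.92% to 10.7%).

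Clpx, the unfoldase that feeds Clpp, was at 28.2, 32.5 and 37.2 CPM in MS and at 28.4, 31.0 and 32.9 CPM in SR. In MS 3 mice were above every SR mouse and 1 was below. Its log2 fold change of 0.08 (SE 0.0448) did not pass the threshold (edgeR adjusted p = 0.496, 95% interval -0.695% to 12.9%). Clpp and Clpx, parts of the same protease, had an r of -0.10 and a rho of -0.08 across the 20 mice (permutation test, adjusted p = 0.94 and 0.91).

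Atf5, the transcription factor that drives the response, was at 20.4, 23.2 and 28.7 CPM in MS and at 20.4, 23.8 and 25.9 CPM in SR. Only 3 of 8 MS mice were above the SR median, and the highest, C1, was above every SR mouse. The log2 fold change was 0.0051 (SE 0.0552, edgeR adjusted p = 0.985), with a 95% interval from -7.26% to 8.60%.

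Chchd2, a protein of the intermembrane space that also acts in transcription, had the highest share of MS mice above every SR mouse. It was at 115, 136 and 155 CPM in MS and at 106, 117 and 129 CPM in SR (lowest, median and highest). Of 8 MS mice, 7 were above the SR median and 6 were above every SR mouse, while C2 and C3 lay within the SR range. The means were 137 ± 13.5 and 117 ± 5.95 CPM (SD, n = 8 and 12). On the log2 scale MS was higher by 0.22 (SE 0.0467), which did not pass the threshold (edgeR adjusted p = 0.111). The 95% interval, not adjusted for the number of genes or for the choice of this gene, ran from 9.17% to 24.8% higher. The groups overlapped in every member, and 0.00551% of all genes (1 gene) were higher in MS without overlap.

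All 3 MS sets had a higher mean of Chchd2 than each SR set. The set means were 147 CPM in A (n = 2), 136 CPM in B and 132 CPM in C (n = 3 each), and 114, 116, 119 and 120.2 CPM in D, E, F and G. For Hspe1 the set means were 29.6, 30.2 and 26.9 CPM in MS and 23.3, 25.6, 24.6 and 23.1 CPM in SR, again with each MS set above each SR set. The same held for Hspd1, at 155.9, 155.5 and 159.9 CPM in MS and 150.2, 144.6, 148.0 and 151.4 CPM in SR. How many of all genes had this order was not counted, so nothing is read from it. These sets are the smallest unit that the rearing was given to if they are the nests. With counts summed within each set, log2 fold changes were 0.24 for Chchd2 and 0.28 for Hspe1 (edgeR adjusted p = 0.382 for both). Neither passed the threshold, and edgeR called 0 of all genes on these summed counts.

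Chchd10, the paralogue and partner of Chchd2, was at 50.1, 57.3 and 68.3 CPM in MS and at 48.7, 57.1 and 63.9 CPM in SR. In MS 4 of 8 mice were above the SR median. The log2 fold change was 0.04 (SE 0.0550, edgeR adjusted p = 0.814, 95% interval -4.78% to 11.5%). Across mice Chchd10 and Chchd2 had an r of -0.01 and a rho of -0.15 (permutation test, adjusted p = 0.991 and 0.812).

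Chchd2 and Hspe1 were lowest in C3 and next lowest in C2 among the MS mice, so leaving either out widens their difference by construction, and nothing is read from the calls that follow. Without MS mouse C3, edgeR called 2 members higher, Hspe1 and Chchd2, beside 0.525% of all genes, and without MS mouse C2 it called 1, Chchd2, beside 0.285%. Without the whole of set C it called both, beside 1.14% of all genes. C3 had the highest transcript length trend of the MS mice (Spearman's rho, across genes, of log2 CPM with transcript length in that library), 0.0893, and C1 had the lowest, 0.0545, with SR mice between 0.0714 and 0.0841. C1 was also the highest MS mouse for 5 of 10 members and C3 the lowest for 4. With this trend as a term, the log2 fold change was 0.21 for Hspe1 and 0.18 for Chchd2 (edgeR adjusted p = 0.225 and 0.137).

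Within the lower range of animal numbers (5 MS and 9 SR mice), Chchd2 had a log2 fold change of 0.27 (SE 0.0565) and Hspe1 of 0.29 (SE 0.0785). Within the higher range (3 and 3 mice), these were 0.13 (SE 0.0833) and 0.22 (SE 0.116). This range holds a single set per group, C and G, so its SEs, and the test of the difference between ranges, lack the spread between sets there. Both genes were higher in MS in both ranges, and how many of all genes were so was not counted. Within either range edgeR called 0 of 10 members, beside 0.0496% and 0% of all genes. The edgeR test of the difference between ranges called 0 of 10 members and 0% of all genes, with 8.67% of all genes at an unadjusted p under 0.05. For Chchd2 the difference was -0.14 (SE 0.101), and for Hspe1 it was -0.07 (SE 0.141).

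Marker genes of the choroid plexus, a tissue next to the hippocampus, were higher in MS in 8 of 8 genes, with none called. Their summed level was 54.8 to 4216 CPM in MS (median 3331) and 30.8 to 4554 CPM in SR (median 842). With a choroid plexus score as a term, the log2 fold change was 0.24 for Hspe1, 0.21 for Chchd2 and 0.07 for Hspd1. None passed the threshold (edgeR adjusted p = 0.323, 0.288 and 0.612), and edgeR called 0 of all genes with this term. Striatal markers were higher in MS in 8 of 8 genes, with summed levels of 86.6 to 700 CPM in MS (median 125, highest in B1). In SR they were 92.2 to 437 CPM (median 113). Dentate granule markers were higher in 0 of 6 and CA pyramidal markers in 1 of 6 (summed medians of 577 CPM in MS and 633 CPM in SR). Oligodendrocyte markers were higher in 5 of 6, and astrocyte, microglia and endothelial markers in 4 of 6 each. Their summed medians in MS and SR were 5710 and 5721 CPM for oligodendrocyte and 1301 and 1293 CPM for astrocyte markers. For microglia markers they were 212 and 214 CPM, and for endothelial markers 213 and 199 CPM. None of these markers was called. The part of these in the members' values was not tested. In bulk tissue, fewer cells of a type and less RNA per cell cannot be told apart.

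Per kilobase of exon, the members' levels spanned from 57.5 to 9.02 CPM per kb over the 20 mice. The length joined the exons of all annotated transcripts of a gene, so levels and order depend on that choice. Which transcripts were expressed was not measured. Hspd1 (57.5 ± 2.95, SD, n = 20) and Chchd2 (55.2 ± 6.00) were highest and did not differ beyond their spread. Then followed Hspa9 (43.9 ± 1.21), Chchd10 (36.8 ± 3.23), Clpp (28.9 ± 2.21), Trap1 (23.7 ± 0.940), Lonp1 (21.5 ± 0.560), Hspe1 (17.6 ± 2.44), Atf5 (11.8 ± 0.969) and Clpx (9.02 ± 0.639) CPM per kb. Over the 20 mice, the means of every other pair of neighbours in this order lay further apart than the sum of their SDs. Within MS, Chchd2 (60.4 ± 5.97, n = 8) stood above Hspd1 (59.5 ± 2.29), and Lonp1 (21.5 ± 0.639) and Hspe1 (19.5 ± 2.24) also did not differ beyond their spread. Within SR the order was as over all mice. The lid gene Hspe1 stood below the chamber gene Hspd1 on this scale.

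The members also differed in how evenly they were expressed among undisturbed mice. In SR the CV of CPM was 2.46% for Lonp1, 2.60% for Hspa9, 4.19% for Trap1, 4.42% for Clpx, 4.47% for Clpp, 4.70% for Hspd1, 5.07% for Chchd2, 7.15% for Atf5, 7.25% for Chchd10 and 10.2% for Hspe1. The median over the 6479 genes within the members' range of CPM was 6.16%. In MS the CV was 2.97% for Lonp1, 2.98% for Hspa9, 3.03% for Trap1, 3.85% for Hspd1, 8.87% for Clpx, 9.88% for Chchd2, 10.2% for Atf5, 10.8% for Clpp, 10.9% for Chchd10 and 11.4% for Hspe1. It was lower than in SR for Trap1 and Hspd1 and higher for the other 8 members. How many of all genes had a higher CV in MS was not counted, and whether the spread differed between the groups was not tested.

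The members were also compared with each other from mouse to mouse. Of 45 pairs of members, 3 had a Pearson correlation of group-centred log2 CPM that passed a permutation test (adjusted p under 0.05), and 0 passed by Spearman's rho. These were Clpp with Chchd10, Hspe1 with Chchd2, and Hspd1 with Hspa9. The share of all pairs of genes that would pass was not counted, so nothing is read from the count of 3.

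**Figure D3:**
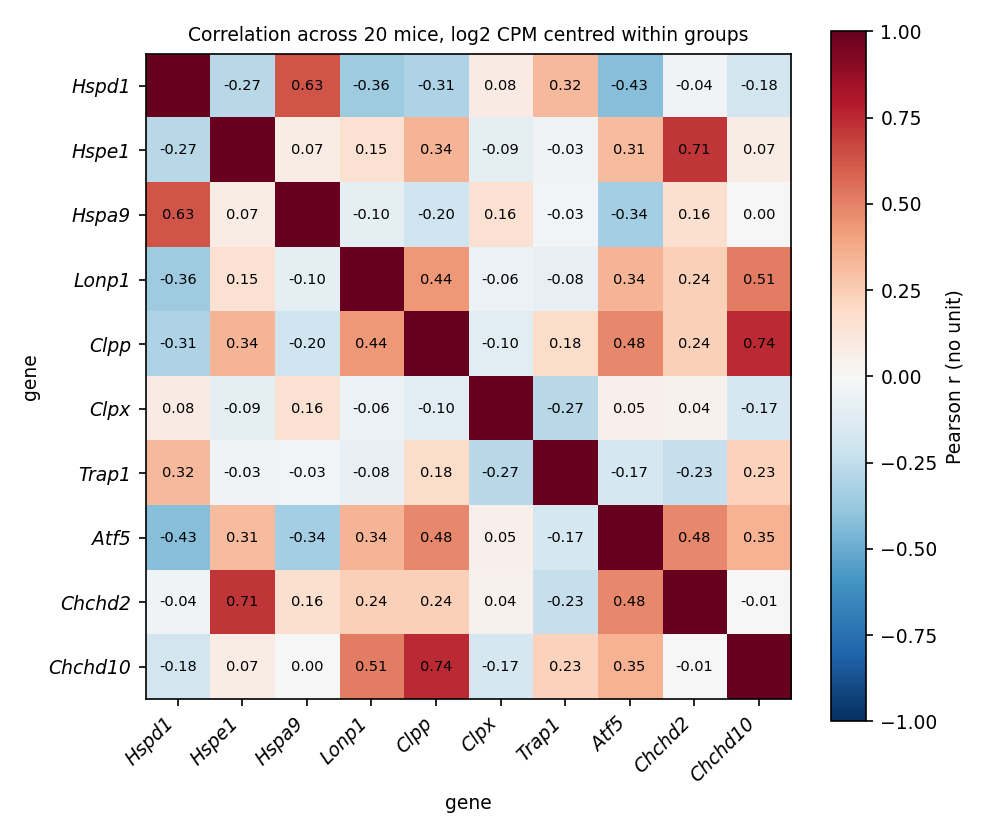
Pearson r between each pair of the 10 genes (both axes) over 20 mice, with log2 CPM centred within MS and SR; colour and number give r. Clpp with Chchd10 (0.74), Hspe1 with Chchd2 (0.71) and Hspd1 with Hspa9 (0.63) were the 3 highest, and Hspd1 with Hspe1 was at -0.27.

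Clpp and Chchd10 had r = 0.74 and rho = 0.65 (permutation test, adjusted p = 0.0205 and 0.134). Without the 2 mice farthest from the median of Clpp, r was 0.59, and it was 0.92 within MS (n = 8) and 0.40 within SR (n = 12). Of 18145 other genes tested, Clpp was the one closest to Chchd10, and Chchd10 ranked 10 for Clpp. With all 21 libraries r was 0.64 and did not pass (permutation test, adjusted p = 0.0934).

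Hspe1 and Chchd2 had r = 0.71 and rho = 0.58 (permutation test, adjusted p = 0.0205 and 0.179). Without the 2 mice farthest from the median of Hspe1, r was 0.52, and it was 0.90 within MS and 0.48 within SR. Of the 18145 other genes, Chchd2 ranked 42 by r for Hspe1, and Hspe1 ranked 156 for Chchd2. Hspd1 and Hspa9 had r = 0.63 and rho = 0.62 (permutation test, adjusted p = 0.0493 and 0.134). Without the 2 mice farthest from the median of Hspd1, r was 0.55, and it was 0.60 within MS and 0.67 within SR. Hspa9 ranked 197 for Hspd1, and Hspd1 ranked 69 for Hspa9.

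Centred within the 7 sets instead, the 3 pairs had r of 0.76, 0.80 and 0.70, and 0 of 45 pairs passed (permutation test, lowest adjusted p = 0.105). If the sets are nests, the mice are not wholly independent. Chchd2 and Atf5 each had an r of -0.68 with the transcript length trend, and Hspe1 of -0.46 (permutation test over 30 relations, adjusted p = 0.104, 0.104 and 0.427). Without the 2 mice farthest from the median trend these were -0.47, -0.27 and -0.16. Hspa9 had an r of 0.57 and a rho of 0.61 with the choroid plexus score (permutation test over the same relations, adjusted p = 0.104 and 0.163), and r was 0.53 without the 2 mice farthest from the median score.

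**Figure D4:**
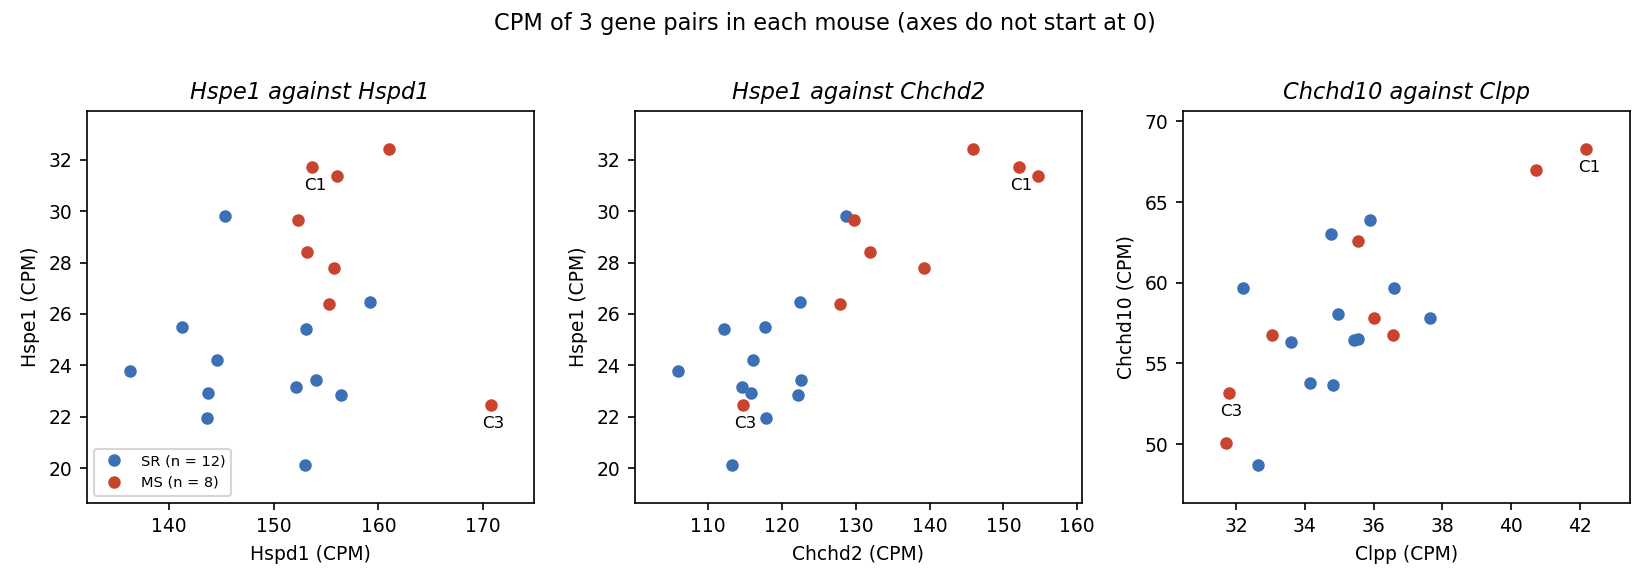
CPM of Hspe1 against Hspd1 (left), Hspe1 against Chchd2 (middle) and Chchd10 against Clpp (right) in each mouse, SR in blue (n = 12) and MS in red (n = 8), with axes that do not start at 0. MS mouse C3 (C1 and C3 are labelled) had the highest Hspd1 (171 CPM) and the lowest Hspe1 (22.5 CPM) and Chchd2 (115 CPM) of its group.

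For each other member, the gene with the highest r across the 20 mice was as follows. Rpl23 was nearest to Hspe1 (0.80) and Rpl9 to Atf5 (0.84), both genes of cytosolic ribosomal proteins. Atp5g3, which encodes a subunit of ATP synthase, was nearest to Chchd2 (0.89), and Psmd4, a proteasome subunit, to Lonp1 (0.76). Acadsb, an enzyme of fatty acid oxidation in mitochondria, was nearest to Hspa9 (0.78). The others were Ascc3 for Hspd1 (0.85), Arl2 for Clpp (0.82), Exosc9 for Clpx (0.79) and Pcdha6 for Trap1 (0.87). These values are the highest of 18145 and carry no test.

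The wider pathway was described by 4 lists of other genes, chosen with earlier results of these data known. Over all genes, 6.62% were higher and 4.92% lower at an unadjusted p under 0.05. Of 10 other mitochondrial chaperones and cochaperones tested, 9 had a log2 fold change above 0, with a median of 0.05, 1 was higher in MS at an unadjusted p under 0.05 and 0 were lower, and edgeR called 0. Phb, prohibitin of the inner membrane, was at 75.2 ± 6.12 CPM in MS and 69.2 ± 4.30 CPM in SR (log2 fold change 0.12, SE 0.0448, edgeR adjusted p = 0.292). Clpb, a disaggregase of the intermembrane space, was at 56.2 ± 2.85 and 54.3 ± 2.50 CPM (0.05, SE 0.0351, adjusted p = 0.618).

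Of 16 other mitochondrial proteases tested, 7 were above 0, the median was -0.0057, 2 were higher in MS at an unadjusted p under 0.05 and 0 were lower, and edgeR called 0. Immp1l, a peptidase of the inner membrane, was at 13.2 ± 1.55 CPM in MS and 11.5 ± 0.892 CPM in SR (0.20, SE 0.0650, edgeR adjusted p = 0.239). Spg7, a subunit of the m-AAA protease, was at 65.9 ± 2.69 and 61.3 ± 4.06 CPM (0.10, SE 0.0395, adjusted p = 0.312).

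Of 9 other CHCHD proteins, 5 were above 0, with a median of 0.05, 4 were higher in MS at an unadjusted p under 0.05 and 0 were lower, and edgeR called 0. Chchd4, which oxidises CHCHD proteins as they enter the intermembrane space, was at 24.8 ± 2.00 CPM in MS and 22.1 ± 1.18 CPM in SR (0.17, SE 0.0461, edgeR adjusted p = 0.168). Chchd1, a protein of the mitochondrial ribosome, was at 11.3 ± 2.08 and 9.91 ± 0.652 CPM (0.19, SE 0.0824, adjusted p = 0.366).

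The regulators of the response and their transcription targets gave no call. Of 17 genes, 15 were tested and Fgf21 and Gdf15 did not pass the filter on low counts. Of the 15, 10 were above 0, with a median of 0.02, and 0 had an unadjusted p under 0.05. The smallest p values belonged to Dele1, which relays mitochondrial stress to the cytosol (42.1 ± 1.70 CPM in MS, 43.3 ± 2.11 in SR, log2 fold change -0.04, edgeR adjusted p = 0.704), and Trib3, a target of Atf4 (0.409 ± 0.180 and 0.501 ± 0.202 CPM, -0.30, adjusted p = 0.731).

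Reads of Chchd2 and the chaperonins may be shared with near-identical copies. Zbed5 holds 454 bases that are 98.5% identical to Chchd2, had 9.19% of the counts of Chchd2, and had a log2 fold change of 0.21 (SE 0.0846, edgeR adjusted p = 0.343). Hspd1-ps3, a processed pseudogene, is 99.0% identical over 1722 bases and had 1.15% of the counts of Hspd1. For Hspe1 a copy with 99.0% identity over 515 bases had 0.699% of its counts. Chchd2 also lies within the span of Phkg1 on the same strand, and Phkg1 had a log2 fold change of -0.02 (SE 0.0672, edgeR adjusted p = 0.940). The strand setting of the counting is not given in the sources used here, so reads from the overlap of Hspd1 with Hspe1, or from Atf5 and Nup62, which overlap on opposite strands by 571 bases, may not have been told apart.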

How the data were processed

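Directional poly-A libraries were sequenced as paired ends. The authors aligned reads to GRCm38 (Ensembl 102) with STAR 2.7.3a and counted them per gene with featureCounts, and deposited raw counts, neither normalised nor filtered. Columns of no sample numbered 0. Members and lists were chosen with earlier results of these data known. Groups came from the labels. MS mouse A2 was left out as the library farthest out on the first component of the 500 most variable genes (DESeq2 1.42.0). Counts were filtered (filterByExpr, minimum 10), TMM-normalised and tested with edgeR 4.0.16 (glmQLFTest, robust, R 4.3.3), with Benjamini-Hochberg adjustment over 18146 genes and a threshold of 0.05, after a run on simulated data. No pair of libraries of a group agreed within sampling noise. Correlations used log2 CPM (prior count 2), centred within groups, with 100000 permutations. All members were named, and of each other list the 2 genes with the smallest p. Positions and lengths are GENCODE M21, promoters RefSeq (GRCm38.p6, 8 members). Copies had at least 95% identity over 100 bases (BLAST+ 2.17.0). Alternatives were all 21 libraries, DESeq2, other filters and size factors, number range, length trend or choroid score as terms, sets summed or as a random block (limma 3.58.1), and each library or set left out. Counting error grows for genes of few counts.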

Additional observations from a re-analysis of the deposited data

Results flagged for a closer look

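MS mouse C3 had 171 CPM of Hspd1, against 161 CPM in the next MS mouse, a gap of 0.526 of the range of the 8 MS mice, which is at the limit of Dixon's test (0.526). MS mouse C1 had 28.7 CPM of Atf5, against 24.0 CPM in the next MS mouse, a gap of 0.558 of the range. The highest and lowest MS mouse of each member were looked at, 20 extremes in all, and chance alone marks about 1 in 20 groups. The SR group, of more than 10 mice, was not looked at in this way. C1 and C3 also had the lowest and the highest transcript length trend of the MS mice, 0.0545 and 0.0893. MS mouse A2, left out of the comparison, had 70.3 CPM of Chchd10, above the highest SR mouse at 63.9 CPM and the highest other MS mouse at 68.3 CPM. In the same library Hspd1 (125 CPM), Hspa9 (153 CPM) and Clpx (25.9 CPM) were below every other mouse. The part of its tissue markers in these values was not tested.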

How the results depend on the processing

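The number of members called was 0 under 33 of 37 alternatives, 2 with DESeq2, and 0 to 2 when single libraries or sets were left out (1 without C2, 2 without C3, 2 without set C). The genes so called, Hspe1 and Chchd2, were chosen with their difference known. The median log2 fold change of the members stayed between 0.01 and 0.07. Hspd1, Hspe1, Clpp, Clpx, Trap1 and Chchd2 kept their direction in all 37 alternatives. Chchd2 ranged from 0.18 to 0.26 and Hspe1 from 0.21 to 0.31.

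Members near 0 changed sign. Hspa9 was at -0.016 with all 21 libraries and -0.00061 with the choroid plexus score as a term. Lonp1 was at -0.0010 with all 21 libraries, -0.0078 without a filter, -0.00019 with at least 10 counts in every library, -0.0071 with the length trend as a term, and between -0.0104 and 0.0093 with a library or set left out. Atf5 was at -0.0036 without a filter, -0.049 with the length trend as a term, and between -0.041 and 0.030 with a library or set left out. Chchd10 was between -0.0033 and 0.087 with a library or set left out. The cause was not tested. Pairs of correlated members numbered 3, 2 with all 21 libraries and 0 when centred within sets. The pair that did not pass with all 21 libraries was Clpp with Chchd10. Members that differed between number ranges numbered 0 also with all 21 libraries. No paired analysis was possible because the labels give no replicate numbers shared by the groups.

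With 8 and 12 mice, the 95% intervals of the difference between the groups were narrowest for Lonp1 (-3.56% to 3.86%) and widest for Hspe1 (8.55% to 31.3%). These intervals count each mouse as independent. The labels do not state whether the sets are nests, and the strand setting of the counting is unknown.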
